A study of Homo sapiens with 4 samples.

Results

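The 10 genes described here encode transcription factors that keep blood stem and progenitor cells in their immature state: MYB, GATA2, LMO2, TAL1, LYL1, ERG, FLI1, MEIS1, HHEX and HOXA9. They were picked by name from the deposited expression table, which lists 18567 genes, and 9 of the 10 had values there. TAL1 was not analysed here. RNA sequencing was performed on 4 cultures labelled Kasumi-1, a human acute myeloid leukemia (AML) cell line, of which 2 were controls (NC) and 2 carried a short hairpin RNA against ANP32B, a nuclear histone chaperone (sh-ANP32B). The NC samples carry no hairpin according to their labels, whereas a control hairpin appears in the methods, and which hairpin each sh-ANP32B sample received was not given in the sources used here. Puromycin selection of infected cells, as the methods describe it, may therefore apply to all 4 cultures or to the sh-ANP32B cultures alone.

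In normal marrow these factors work as a network. LMO2 has no DNA binding of its own and bridges GATA factors and the basic helix-loop-helix factors TAL1 or LYL1, with LDB1 as the partner that joins complexes to each other. FLI1 and ERG are ETS factors that bind many of the same enhancers, MYB drives proliferation of progenitors, and HOXA9 with its cofactor MEIS1 maintains self-renewal. HHEX is a homeobox repressor of early progenitors, and several of these genes are switched down as myeloid cells mature.

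The values are TPM, a measure scaled to transcript length and to the total of each sample, so levels can be set side by side between genes, whereas the sequencing depth is unknown. ANP32B itself stood at 384 and 392 TPM in NC and at 51.8 and 41.2 TPM in sh-ANP32B, a log2 fold change equal to -3.04 (limma adjusted p 0.00516, SE 0.150). Of 16817 genes tested across the whole table by limma, 559 passed an adjusted p of 0.05, with 360 higher and 199 lower in sh-ANP32B. After median-of-ratios scaling the split was 236 higher and 294 lower. Mitochondrial transcripts took 12.9% and 13.1% of all TPM in the NC replicates, against 11.4% and 8.43% under knockdown. The gap between the sh-ANP32B replicates followed transcript GC content across genes with a Spearman rho of 0.577 (15427 genes, which are not independent replicates), against -0.206 between the NC replicates. No source says that the replicates came from separate infections, so all p-values measure the spread between these samples, which may be technical.

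The cell line label was checked against 7 markers of Kasumi-1, a line that carries the RUNX1::RUNX1T1 fusion and is known for strong CD34 and KIT. RUNX1T1, the fusion partner, was at 15.6 to 31.2 TPM over the 4 samples, POU4F1, a neural factor typical of leukemias with this fusion, at 16.1 to 22.9 TPM, CD33 at 58.5 to 70.1 TPM and ANPEP (CD13) at 81.7 to 134 TPM. KIT, in contrast, was at only 1.55 to 3.41 TPM, and CD34 and MPO were not analysed here. HOXA9 was among the most abundant members, at 150 to 194 TPM, whereas AML with RUNX1::RUNX1T1 is generally known for low HOXA9. High HOXA9 with MEIS1 is usual in AML with a KMT2A rearrangement, such as MV4-11, the other line of the study. MEIS1 was at 49.9 to 64.3 TPM over the 4 samples. KIT, and HOXA9 together with MEIS1, thus went against the label while RUNX1T1 and POU4F1 went with it. The identity of the line was not settled from these values, and every level below is that of the libraries labelled Kasumi-1.

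The members covered a wide range of levels in NC. MYB was the most abundant, with 246 and 249 TPM in the NC replicates, above 97.0% of the genes tested. LYL1 followed with a mean of 201 TPM, then HOXA9 with 153, LMO2 with 87.6, FLI1 with 71.3, HHEX with 65.3 and MEIS1 with 50.3 TPM. ERG and GATA2 were near the lower end, with means of 3.15 and 1.84 TPM, above 23.7% and 15.2% of the genes tested. Every neighbouring pair in this order was separate in NC, where no ranges of the 2 replicates met. In sh-ANP32B the ranges of MYB and LYL1 met, as did those of LYL1 and HOXA9 and those of GATA2 and ERG, so the order within these pairs was not resolved there. HHEX and FLI1 changed places, and their ranges did not meet in either group.

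**Figure D1:**
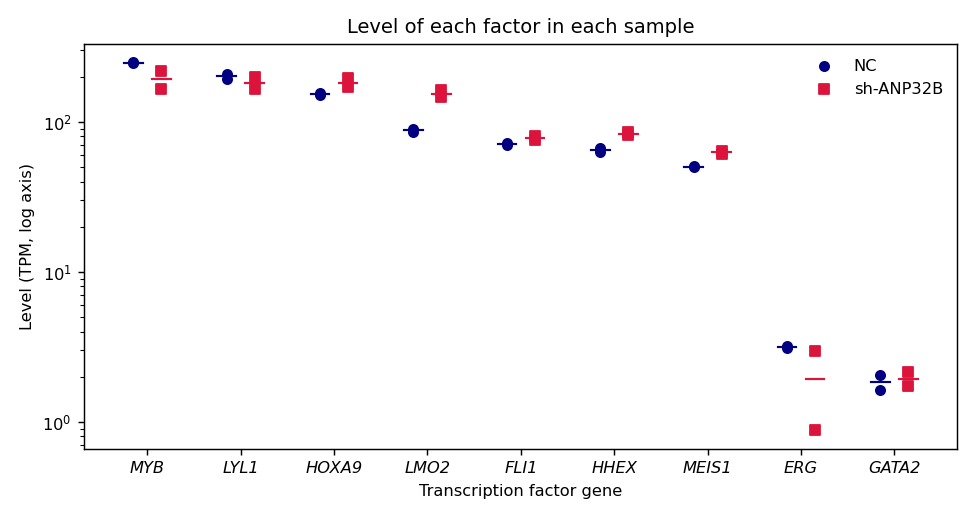
Level of each of the 9 measured factors in TPM on a log axis, with 1 point per sample (circles NC, squares sh-ANP32B) and a short line at each group mean (n = 2 each). LMO2 shows the widest clear gap between groups, with 85.8 and 89.5 TPM in NC against 146 and 163 TPM in sh-ANP32B, while ERG and GATA2 lie far below the other 7 genes.

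Comparing the groups, LMO2 rose and was the only 1 of the 9 measured members past the adjusted p of 0.05. That is a share of 1 in 9 where 3.32% of all genes tested passed, and where 2.14% passed as higher and 1.18% as lower, and it rests on a single gene. Of the members, 6 had a positive and 3 a negative fold change, where 9741 of all 16817 genes tested had a positive one. The median log2 fold change of the members was 0.13, beside 0.08 over all genes tested. The members did not move as 1 block: LMO2, HHEX, MEIS1, HOXA9 and FLI1 had both sh-ANP32B samples above both NC samples, MYB and ERG had both below, and the groups overlapped for LYL1 and GATA2. Groups without overlap in either direction are common in these data, at 54.6% of all genes tested, 33.2% higher and 21.4% lower. With 2 samples in each group the smallest two-sided p of an exact permutation test is 0.333, so none was run and each p below rests on the variance that limma shares across genes.

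LMO2 (ENSG00000135363, chromosome 11, hg38, 33858576 to 33892076, minus strand), the bridging protein of the complex, had 85.8 and 89.5 TPM in NC replicates 1 and 2. In sh-ANP32B it had 146 and 163 TPM in replicates 1 and 2. Both knockdown samples lay well above both controls, and the mean rose from 87.6 ± 2.62 to 154 ± 12.1 TPM (SD, n = 2 each), so that knockdown samples held 176% of the control level. The log2 fold change was 0.81 (95% confidence interval 0.49 to 1.12, SE 0.131, limma adjusted p 0.0401). The size held under every alternative, between 0.71 and 0.89, but the call is close to the threshold: limma gave an adjusted p of 0.239 without NC replicate 1, 0.191 without NC replicate 2 and 0.121 without the abundance trend. An unnamed long noncoding gene on the opposite strand (ENSG00000184566) overlaps LMO2 and had 2.70 and 2.73 TPM in NC against 4.73 and 3.88 TPM in sh-ANP32B. Whether the authors' counting used strand is not given in the sources used here.

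The helix-loop-helix and GATA partners showed no such rise. LYL1 (chromosome 19, 13099033 to 13103161), the close relative of TAL1, had 210 and 192 TPM in NC. It had 166 and 198 TPM in sh-ANP32B, so that the groups overlapped, with a log2 fold change of -0.14 (95% confidence interval -0.48 to 0.19, SE 0.142, limma adjusted p 0.592). It was -0.01 without sh-ANP32B replicate 1, -0.27 without sh-ANP32B replicate 2, -0.08 without NC replicate 1, -0.24 after median-of-ratios scaling and -0.27 with GC correction (limma adjusted p 0.0606). GATA2 (chromosome 3, 128479427 to 128493201), a zinc finger factor required for stem cell maintenance, had 1.62 and 2.06 TPM in NC against 1.74 and 2.15 TPM in sh-ANP32B. Replicate 2 was higher than replicate 1 in both groups and the group ranges were interleaved. Its log2 fold change of 0.05 had a 95% confidence interval from -0.66 to 0.76 (limma adjusted p 0.940), and the sign turned to -0.01 after median-of-ratios scaling, so these data give GATA2 no direction. The antisense gene GATA2-AS1 was itself at 6.72 to 10.2 TPM, above GATA2, and without strand the reads of the overlapping part cannot be told apart.

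The LMO2 partners outside the members were followed through a list of 15 genes, of which 14 were tested and 0 passed by limma. Of the 14, 8 had a positive and 6 a negative fold change, where 9741 of all 16817 genes tested had a positive one. At an unadjusted p, 1 of the 14 was under 0.05, where 23.8% of all genes tested were. It was LDB1, the LIM-domain binding partner of LMO2, with 135 and 127 TPM in NC against 154 and 188 TPM in sh-ANP32B (log2 fold change 0.37, SE 0.145, limma adjusted p 0.186). The LDB1 difference was 0.52 without sh-ANP32B replicate 1 and 0.23 without replicate 2. CBFA2T3 (ETO2), a corepressor of the complex, had 11.1 and 10.8 TPM in NC against 14.2 and 16.0 TPM in sh-ANP32B (log2 fold change 0.43, limma adjusted p 0.216). The median log2 fold change of the 14 genes was 0.09, close to the 0.08 of all genes.

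Ratios within a sample do not depend on how samples are scaled to each other. GC-linked differences between libraries stay in them where the 2 genes differ in GC content. The longest transcripts of LMO2 and MYB have a GC content of 55.5% and 43.9%. The ratio of LMO2 to LYL1 was 0.409 and 0.466 in the NC replicates and 0.879 and 0.820 in the sh-ANP32B replicates. LMO2 over MYB was 0.348 and 0.360 in NC against 0.663 and 0.991 in sh-ANP32B. LMO2 over LDB1 was 0.637 and 0.705 in NC against 0.948 and 0.868 in sh-ANP32B. In each of these pairs both knockdown samples had relatively more LMO2 than either control, with the widest replicate gap where MYB was the denominator. A ratio shows unequal change, not which of the 2 genes moved. As LMO2 is the member that passed, these ratios in part restate its rise and are no separate result.

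**Figure D2:**
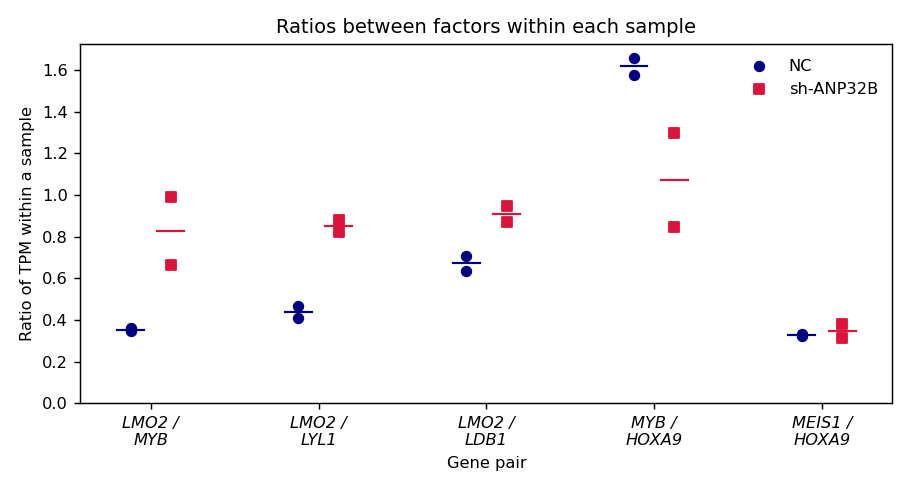
Ratio of TPM values of 2 genes within each sample, on a linear axis from 0, with 1 point per sample (circles NC, squares sh-ANP32B) and a line at each group mean (n = 2 each). LMO2 relative to MYB, LYL1 and LDB1 is higher in both sh-ANP32B samples, MYB relative to HOXA9 is lower, and MEIS1 relative to HOXA9 overlaps between the groups.

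MYB (ENSG00000118513, chromosome 6, 135181308 to 135219173, plus strand), the oncoprotein on which many leukemias depend, had 246 and 249 TPM in NC against 220 and 164 TPM in sh-ANP32B. Both knockdown samples were below both controls, but they differed from each other by 0.42 on the log2 scale, more than the 0.38 that separated the groups. The log2 fold change was -0.38 (95% confidence interval -0.77 to 0.01, SE 0.164, limma adjusted p 0.221). The size rested on 1 library: without sh-ANP32B replicate 1 the log2 fold change was -0.59, and without replicate 2 it was -0.17. The longest MYB transcript has a GC content of 43.9%, and after GC correction the log2 fold change was -0.35 (limma adjusted p 0.0809). The overlapping antisense gene MYB-AS1 was at 5.77 to 14.0 TPM.

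The upstream sequences of MYB, HHEX and HOXA9 are shown because these are the measured members with a single window, outside annotated untranslated regions, that holds a match to the letters searched. Each is the 250 bases before the RefSeq start (GRCh38.p14), read in the direction of the gene. For 8 of the 10 members 13 windows were found. LMO2 and FLI1 have no entry in the table used, and the LYL1 window overlaps an annotated untranslated region. Capitals mark matches, on either strand, to GATAA (GATA factors), AGGAAG (ETS factors), CACGTG (the MYC type of E-box), TGACAG (MEIS factors) or TTTGGCGGG (E2F factors). The E2F letters were added after the MYB sequence had been seen, and the MYB window is shown only through them, since it matches no other letters searched.
MYB, chr6:135181058-135181307, plus strand: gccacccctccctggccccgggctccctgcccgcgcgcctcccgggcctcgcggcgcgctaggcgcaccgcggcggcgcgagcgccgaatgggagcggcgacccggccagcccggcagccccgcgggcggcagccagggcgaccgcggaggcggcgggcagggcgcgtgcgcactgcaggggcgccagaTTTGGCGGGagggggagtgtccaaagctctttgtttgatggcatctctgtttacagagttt
HHEX, chr10:92689705-92689954, plus strand: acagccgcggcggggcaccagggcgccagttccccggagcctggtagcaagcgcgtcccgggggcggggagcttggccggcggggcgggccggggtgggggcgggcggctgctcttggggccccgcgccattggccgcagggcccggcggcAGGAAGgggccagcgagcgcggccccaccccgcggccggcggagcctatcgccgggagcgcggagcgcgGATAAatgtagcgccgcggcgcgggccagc
HOXA9, chr7:27165538-27165787, minus strand: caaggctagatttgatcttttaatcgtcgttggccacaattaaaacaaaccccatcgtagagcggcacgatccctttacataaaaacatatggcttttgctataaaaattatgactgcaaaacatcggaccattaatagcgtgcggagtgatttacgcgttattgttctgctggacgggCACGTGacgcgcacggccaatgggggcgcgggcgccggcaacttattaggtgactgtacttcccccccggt
The MYB window held 1 match to the E2F letters, which occur in 0.24% of 34943 windows of the same length. Because these letters were chosen from that sequence, the match was certain and the share does not measure its rarity. HHEX held 1 GATA match and 1 ETS match, found in 20.5% and 28.7% of windows, and HOXA9 held 1 MYC-type E-box, found in 6.32%. The MEIS letters, found in 13.1% of windows, were in none of the 13. Among the windows not shown, GATA and ETS letters were also in those of ERG and TAL1 and GATA letters in that of LYL1, while those of MEIS1 and GATA2 held none of the 5 kinds. A match of letters is a description of the window and no evidence of binding.

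The homeobox members all had positive fold changes, where 9741 of all 16817 genes tested had one, and none passed. HHEX (chromosome 10, 92689955 to 92695647), whose window above holds the GATA and ETS letters, had 63.3 and 67.2 TPM in NC against 82.0 and 84.9 TPM in sh-ANP32B. The groups were separate by more than the gap within either, with a log2 fold change of 0.35 (SE 0.131, 95% confidence interval 0.04 to 0.66). Its unadjusted limma p was 0.0333, where 23.8% of all genes tested were under 0.05, and the adjusted p was 0.174. HHEX passed with GC correction (limma adjusted p 0.0369), where 2531 of 15427 genes passed, and not with the replicate block (0.371). Its log2 fold change was 0.31 and 0.39 without NC replicates 1 and 2. It was 0.38 and 0.33 without sh-ANP32B replicates 1 and 2.

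MEIS1 (chromosome 2, 66433452 to 66573869), the TALE homeobox cofactor of HOXA9, had 50.6 and 49.9 TPM in NC against 64.3 and 61.0 TPM in sh-ANP32B. The groups were separate and the replicates close, and the log2 fold change was 0.31 (95% confidence interval -0.01 to 0.63, SE 0.135, limma adjusted p 0.222, and 0.0486 with GC correction). HOXA9 (chromosome 7, 27162438 to 27175180) had 156 and 150 TPM in NC against 169 and 194 TPM in sh-ANP32B. Both knockdown samples lay above both controls, with replicate 2 the higher, and the log2 fold change was 0.24 (95% confidence interval -0.07 to 0.56, SE 0.132, limma adjusted p 0.316). It was 0.34 without sh-ANP32B replicate 1 and 0.14 without replicate 2. The HOXA9 gene model overlaps its neighbours in the annotation, and how reads there were assigned is not given in the sources used here. HOXA10 had 114 and 116 TPM in NC against 97.1 and 116 TPM in sh-ANP32B, a protein-coding locus that overlaps HOXA9 on the same strand (ENSG00000257184) had at most 4.95 TPM, and HOXA10-AS ranged from 3.57 to 20.9 TPM, so the HOXA9 values are uncertain to that extent. The ratio of MEIS1 to HOXA9 was 0.324 and 0.332 in NC and 0.380 and 0.314 in sh-ANP32B, so that the groups overlapped.

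The list of other HOX, PBX and MEIS genes and their regulators held 20 genes, of which 13 were tested. MEIS3, a lowly expressed relative of MEIS1, rose from 1.29 and 0.813 TPM in NC to 6.21 and 5.39 TPM in sh-ANP32B, for a log2 fold change equal to 1.74 (limma adjusted p 0.0399, SE 0.281), and it was the only gene of the list past the threshold. Its adjusted p was 0.107 without the abundance trend. The test required 1 TPM in 2 samples, which MEIS3 met only through the sh-ANP32B samples, where it is high. It was not tested where 1 TPM was required in every sample. The median log2 fold change of the 13 genes was 0.13. PBX2, a further TALE cofactor, had 8.02 and 7.38 TPM in NC against 12.4 and 15.1 TPM in sh-ANP32B (log2 fold change 0.76, limma adjusted p 0.0885).

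The ETS members did not differ beyond the threshold. FLI1 (chromosome 11, 128686535 to 128813267), the abundant one of the pair, had 72.5 and 70.2 TPM in NC against 75.8 and 80.5 TPM in sh-ANP32B. Its log2 fold change of 0.13 (95% confidence interval -0.18 to 0.44, SE 0.131, limma adjusted p 0.600) shrank to 0.04 after median-of-ratios scaling. ERG (chromosome 21, 38380027 to 38661780) had 3.19 and 3.12 TPM in NC. In sh-ANP32B it had 2.96 TPM in replicate 1 and 0.878 TPM in replicate 2, so that 1 library was near the controls and the other far below. The log2 fold change was -0.61 (95% confidence interval -1.56 to 0.35, SE 0.400, limma adjusted p 0.410). It was -0.07 without sh-ANP32B replicate 2 and -1.14 without replicate 1, and a value so low cannot be given a counting error without the depth. The ratio of ERG to FLI1 was 0.0440 and 0.0444 in NC against 0.0391 and 0.0109 in sh-ANP32B.

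**Figure D3:**
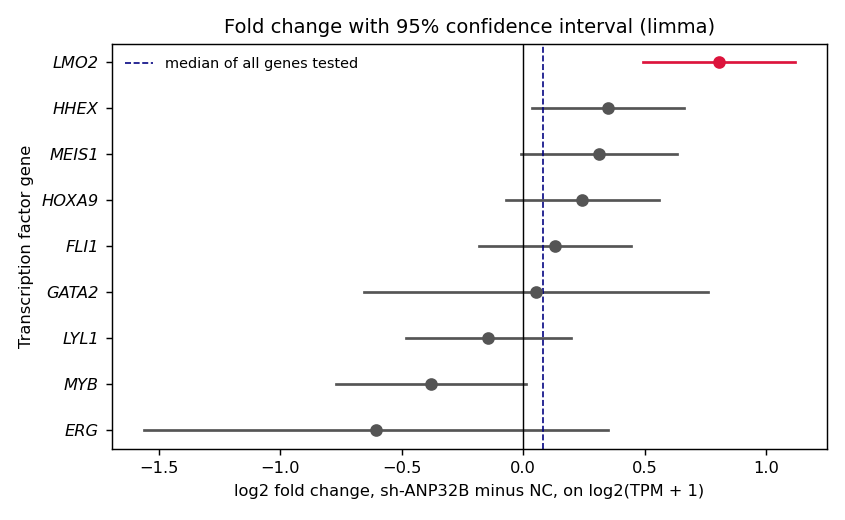
Log2 fold change of sh-ANP32B minus NC for the 9 measured factors on the log2(TPM + 1) scale, with bars for the 95% confidence interval from limma (2 samples against 2). LMO2 (red, 0.81) is the gene with an adjusted p under 0.05, the dashed line marks the median of all genes tested (0.08), and the interval of ERG is the widest.

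Relatives of the members from the ETS, MYB and GATA families gave 11 tested genes of 15 listed, with a median log2 fold change of 0.08. The one past the threshold was MYBL2 (B-Myb), which drives mitotic genes rather than progenitor genes. It fell from 173 and 166 TPM in NC to 89.8 and 101 TPM in sh-ANP32B, a log2 fold change equal to -0.83 (limma adjusted p 0.0392, SE 0.131). Its limma adjusted p was 0.227 without NC replicate 1, 0.174 without NC replicate 2 and 0.121 without the abundance trend. SPI1 (PU.1), the ETS factor of the myeloid lineage, had 251 and 241 TPM in NC against 301 and 364 TPM in sh-ANP32B (log2 fold change 0.43, limma adjusted p 0.131).

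Of 13 other stem and progenitor factors, 6 were tested and 0 passed by limma, with a median log2 fold change of -0.13. At an unadjusted p, 1 of the 6 was under 0.05, where 23.8% of all genes tested were. NFE2, a factor of megakaryocytes and red cell precursors, had 10.3 and 12.9 TPM in NC against 20.4 and 18.4 TPM in sh-ANP32B (log2 fold change 0.70, limma adjusted p 0.0959). The NFE2 fold change was 0.55 and 0.85 without NC replicates 1 and 2, and 0.63 and 0.77 without sh-ANP32B replicates 1 and 2. ZBTB16 (PLZF), a zinc finger repressor, had 5.48 and 11.1 TPM in NC against 3.44 and 5.43 TPM in sh-ANP32B (log2 fold change -0.73, limma adjusted p 0.275). The ZBTB16 value rested on single libraries, at -1.17 without NC replicate 1, -0.28 without NC replicate 2 and -0.46 without sh-ANP32B replicate 1.

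Genes known as MYB targets had a median log2 fold change of -0.47 over 6 tested of 7 listed, beside 0.08 over all genes tested. Of the 6, 5 were negative and 1 passed as lower. Of all 16817 genes tested, 7076 were negative and 1.18% passed as lower. MYC fell from 131 and 144 TPM to 56.7 and 63.2 TPM (log2 fold change -1.18, limma adjusted p 0.0261, and 0.114 without the abundance trend). BCL2, the survival gene, had 7.45 and 7.98 TPM in NC against 3.73 and 3.47 TPM in sh-ANP32B (log2 fold change -0.92, limma adjusted p 0.0736). KIT was the exception, with a log2 fold change equal to 0.49 (limma adjusted p 0.370). The list mixes cell cycle and lineage genes, and MYB itself was not past the threshold. The paper reported lower RNA of MYC, BCL2 and CCNB1 in Kasumi-1 after knockdown. As the list was written with earlier results of these data known, its median is no independent result on MYB targets.

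Markers of mature myeloid cells had positive fold changes in the same samples in which LMO2 rose. Of 12 listed, 10 were tested, all 10 had positive fold changes and 3 passed, among them ITGAX and LYZ, with a median log2 fold change of 0.86. Of all 16817 genes tested, 9741 had positive fold changes and 2.14% passed as higher. Their summed level was 825 and 859 TPM in NC against 1663 and 1597 TPM in sh-ANP32B, most of it from LYZ, the lysozyme of monocytes and granulocytes. ITGAX (CD11c) rose from 10.4 and 10.6 TPM to 41.7 and 41.6 TPM. The part of maturation in the LMO2 difference was not tested, and in bulk RNA a change in the share of maturing cells and a change in RNA per cell cannot be told apart.

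**Figure D4:**
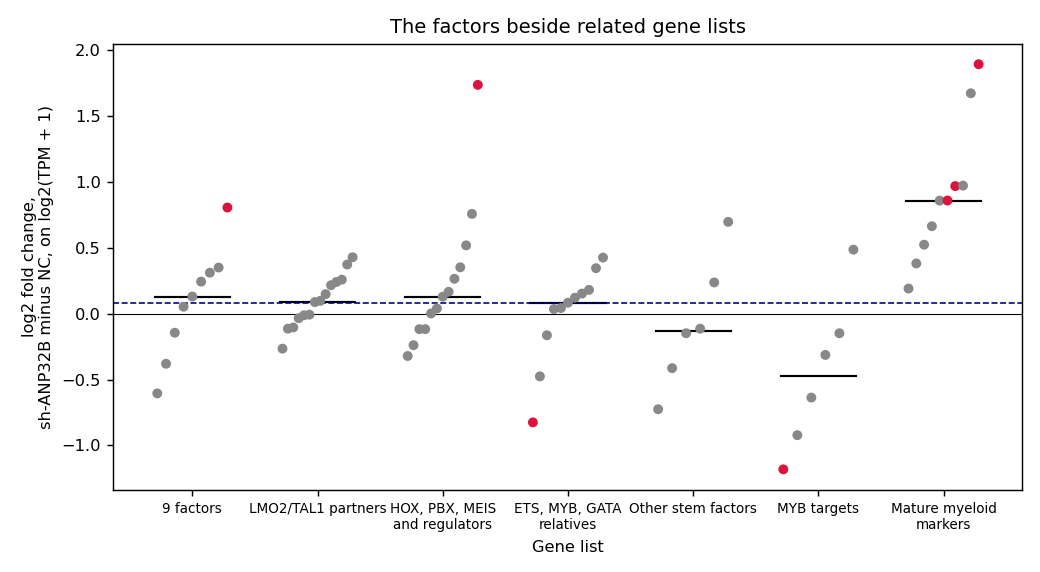
Log2 fold change of each tested gene on the log2(TPM + 1) scale for the 9 factors, for the 5 related gene lists and for the mature myeloid markers, with red points at an adjusted p under 0.05, a black line at each list's median and a dashed line at the median of all genes tested (0.08). The factors (median 0.13) lie around the dashed line, the MYB targets (median -0.47) below it and the mature myeloid markers (median 0.86) above it. The lists were chosen with earlier results of these data known.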

How the data were processed

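RNA was sequenced from 4 cultures labelled Kasumi-1, 2 NC and 2 sh-ANP32B, grouped by the sample titles. The authors aligned the reads to hg38 with HISAT2 (2.0.5) and deposited 1 table of TPM values with a column for each sample. The program behind the TPM, its annotation and any filter are not given in the sources used here. Columns summed to between 997812 and 998314, which the unit fixes, and depth is unknown, so no counting error was computed. Of 18567 gene IDs, 16986 matched GENCODE v44 (hg38), used for symbols, positions and GC content. No value above 0 was identical between replicates.

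A gene entered the test when 2 or more samples reached 1 TPM, and log2(TPM + 1) was compared by limma 3.58.1 (R 4.3.3) with an abundance trend, two-sided, with Benjamini-Hochberg adjustment over the 16817 genes tested. Fold changes on this scale understate those of low genes. The study used DESeq2, not run here for want of counts. All 9 measured members passed the filter. The members and lists were chosen with earlier results of these data known. Named are the members, ANP32B, every listed gene past the threshold (save for an item that is not reported here) and otherwise the 2 of a list with the largest fold change. PBX2, SPI1, BCL2 and KIT are named as further examples chosen after their values were seen. Upstream sequences came from RefSeq. Python 3.11.15, pandas 2.3.3 and matplotlib 3.10.9 were used.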

Additional observations from a re-analysis of the deposited data

How the results depend on the processing

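Across 9 other settings and 4 fits that left out 1 library each, LMO2 kept a positive log2 fold change and ANP32B a negative one, of -3.20 to -2.88. Each leave-one-out fit assumes that the lone sample varies like the other group, and without either sh-ANP32B replicate the spread comes from the close NC pair alone. The study's criterion was a p under 0.05 with an absolute log2 fold change over 0.5. Taken here with the unadjusted limma p, it was met by 3130 genes. The count of genes past an adjusted p of 0.05, 559 as reported, became 2531 under GC correction and 1473 under the replicate block. It was 1913 under the replicate block plus GC correction and 1995 under a crossed replicate block chosen after seeing the data. Without the trend in limma it was 0, although 3701 genes then had an unadjusted p under 0.05. It was 273 to 4079 when 1 library was left out. The number of members past the threshold, 1 as reported, was 3 with GC correction (LMO2, HHEX and MEIS1), 0 without the trend and 0 to 5 when 1 library was left out. For the related genes, 3 as reported (MYC, MYBL2 and MEIS3), it became 8 under GC correction, 5 under the replicate block plus GC correction, 7 under the crossed replicate block, 0 without the trend and 2 to 17 when 1 library was left out. The cause of these shifts was not tested.

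GATA2, at 0.05 as reported, reversed to -0.0074 after median-of-ratios scaling, to -0.11 with GC correction, to -0.11 with the replicate block plus GC correction, and over the fits that left out 1 library it ranged from -0.059 to 0.165, negative without NC replicate 1 (-0.059) and without sh-ANP32B replicate 2 (-0.047). The groups share replicate numbers 1 and 2 in their titles, with no statement that equal numbers share a day or batch. Across 16817 genes, samples with equal numbers deviated from their groups with Pearson r = -0.09 and Spearman rho = -0.17. With the replicate block 1 member (LMO2, adjusted p 0.00536) and 4 related genes passed by limma. Depth is unknown, and ERG, GATA2 and MEIS3, among others, had levels within a few TPM of the filter.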

Other observations

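Among 22 markers of other lineages, 6 had values and 5 were tested. CD2, a surface protein of T and NK cells, rose from 1.65 and 1.57 TPM in NC to 9.48 and 9.25 TPM in sh-ANP32B, for a log2 fold change equal to 1.99 (limma adjusted p 0.0261). PAX5, a B-cell factor that AML with RUNX1::RUNX1T1 is known to express, was at 3.70 and 3.29 TPM in NC against 1.51 and 2.04 TPM in sh-ANP32B (log2 fold change -0.70, limma adjusted p 0.193). RUNX1T1 had 17.6 and 15.6 TPM in NC against 31.2 and 26.8 TPM in sh-ANP32B, a log2 fold change equal to 0.77 (limma adjusted p 0.0632). MEIS1-AS2, an antisense gene within MEIS1, had 0.730 and 0.190 TPM in NC against 2.40 and 4.95 TPM in sh-ANP32B. These genes were singled out after their values were seen.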
